A study of Homo sapiens with 9 samples.

Results

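HepG2 cells exposed to recombinant SPARC at 800 ng/ml were compared with HepG2 cells exposed to 200 ng/ml, to ask which transcripts depend on the dose. The comparison took the 3 arrays of each dose, 6 of the 9 arrays in the series, and covered 17687 named genes. HepG2 is an established human liver cancer line that keeps much of the secretory program of hepatocytes. Both groups had received SPARC, and RNA was taken 24 h later. The 3 untreated HepG2 arrays do not enter the contrast and are quoted only to place its values. The extraction text in the labels mentions untreated cells and the higher dose, and only the sample labels and the design text name the lower one. The sources used here name neither the origin of the protein nor a carrier for the untreated cells. No label says whether replicates came from separate cultures, so p-values reflect only how far these samples scatter, and that scatter may be technical.

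SPARC, also called osteonectin, is a glycoprotein that cells release into the matrix, where it binds collagen and calcium. It acts between cells and matrix: it loosens focal adhesions, takes part in collagen fibril assembly, and modulates signalling through integrins and growth factors such as TGF-beta. In the liver it is made mainly by stellate and endothelial cells rather than by hepatocytes. Genes of matrix, adhesion, TGF-beta signalling, hypoxia, cell cycle and liver metabolism were therefore followed as lists, together with markers of other cell types.

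Values are log2 signals of 1 transcript cluster per gene, a set of probes for 1 gene, and a difference of 1 is a factor of 2. Correlations between arrays were taken over all transcript clusters, with or without a gene symbol. They were 0.984 to 0.991 within the 200 ng/ml arrays, 0.986 to 0.990 within the 800 ng/ml arrays and 0.979 to 0.987 between doses. The hepatocyte markers ALB, AFP and APOA1 overlapped between the doses, while TF and FGB of the same list, given further on, did not. ALB, the main plasma protein, had 12.28, 12.36 and 12.32 at 200 ng/ml and 12.46, 12.34 and 12.35 at 800 ng/ml. The signal of AFP, a plasma protein of the fetal liver, was 8.96, 9.19 and 9.14 against 9.04, 9.11 and 9.18, and APOA1, the apolipoprotein of HDL particles, 10.48, 10.23 and 10.28 against 10.33, 10.21 and 10.27. Some arrays stood apart in other ways. In 800 ng/ml replicates 2 and 3, transcripts known from glia and SPARC itself were high, and replicate 1 lacked them. Replicate 1 at 200 ng/ml correlated least with the 800 ng/ml arrays, at 0.979 to 0.980. The arrays of the 2 doses also lay apart along the direction in which untreated replicate 2 deviates from untreated replicates 1 and 3. The slope of each array's deviations on that of untreated replicate 2 was 0.13, 0.01 and 0.05 at 200 ng/ml and −0.07, −0.04 and −0.08 at 800 ng/ml. The ranges do not overlap, so dose and this direction cannot be told apart.

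No gene passed the test between the doses. Of 17687 genes 0 (0%) had a Benjamini-Hochberg adjusted p under 0.05 in limma, and the smallest adjusted p was 0.247, shared by 404 genes. In limma 2481 genes had an unadjusted p under 0.05, 1194 of them higher and 1287 lower at 800 ng/ml, where 5% of the genes is 884. Gene shares at that level were 6.75% higher and 7.28% lower. The 6 arrays separated the doses without overlap for 2147 genes that were higher at 800 ng/ml (12.1%) and for 1720 that were lower (9.72%). These differences were small. Only 109 of the higher and 192 of the lower genes without overlap differed by 1.5-fold or more, and 6 and 1 by 2-fold or more. The median gene had a 95% interval of 0.32 on the log2 scale to either side, or 1.25-fold.

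Which genes were higher depended on how bright they were. When genes were ordered by mean signal and cut into 10 equal bins, 22.6% of those in the brightest bin were higher without overlap at 800 ng/ml and 7.91% lower. In the fourth bin from the dim end these shares were 4.58% and 15.6%. The higher genes had a median signal of 6.89 and the lower ones 5.29, against 5.57 for all genes. They also differed in gene length, with a median RefSeq locus of 40504 bases for the higher, 13251 for the lower and 25888 for all genes. Untreated replicate 2 lay below the mean of untreated replicates 1 and 3 for 86.1% of the higher genes, against 53.4% of all genes, and above it for 75.9% of the lower genes, against 46.6%. The mean at 800 ng/ml was the closer of the doses to untreated replicates 1 and 3 for 72.1% of the higher, 66.3% of the lower and 59.1% of all genes. After quantile normalization the median differences of the bins lay between −0.02 and 0.02. The part of signal, gene length and this direction in the single genes below was not tested.

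**Figure D1:**
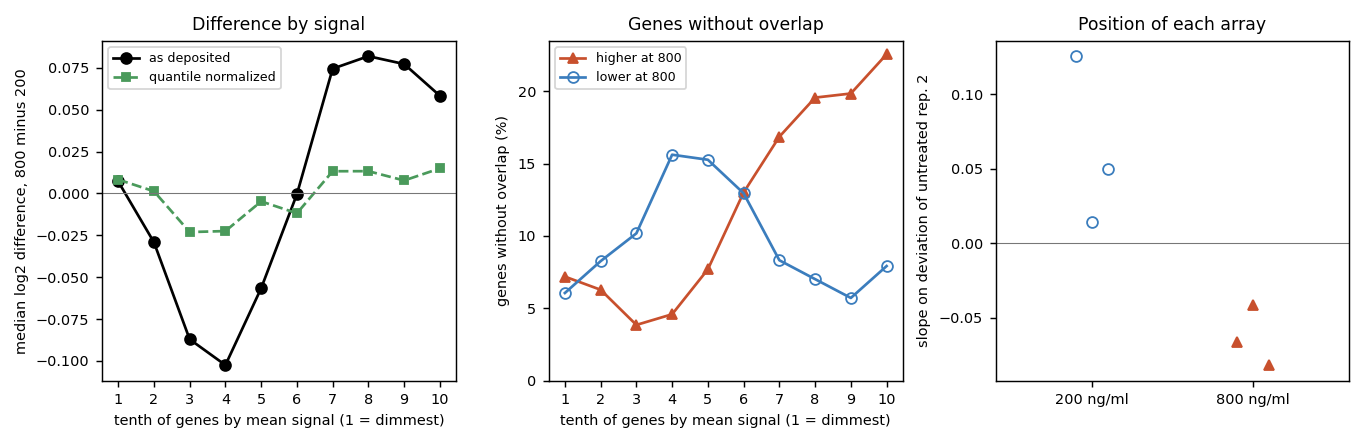
Left, median log2 difference, 800 minus 200 ng/ml, in each of 10 bins of genes ordered by mean signal, as deposited (circles) and after quantile normalization (squares); middle, percent of genes in each bin whose 3 arrays per dose do not overlap; right, slope of each array's deviations on those of untreated replicate 2, 1 symbol per array. Differences as deposited are negative in bins 2 to 6, lowest in bin 4, and positive in bin 1 and in bins 7 to 10, and the slopes of the doses do not overlap.

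The 10 genes with the smallest p that were lower at 800 ng/ml included the protease KLK7, the small chaperone HSPB6, the receptors TBXA2R, PTGER1 and GPR15 and the Notch ligand DLL3. KLK7, a serine protease of the skin barrier, had the smallest p of all genes. Its signal was 5.88, 5.71 and 5.83 at 200 ng/ml and 4.96, 4.92 and 4.82 at 800 ng/ml. The doses are well apart for KLK7, with a log2 difference of −0.90 ± 0.11 (SE, n = 3 per dose) or 1.87-fold. CRYBG2, a protein with crystallin domains, had 4.43, 4.61 and 4.65 against 3.45, 3.65 and 3.71, a difference of −0.96 ± 0.12. HSPB6, a small heat shock protein of muscle, had 7.28, 7.06 and 7.21 against 6.20, 6.42 and 6.44, a difference of −0.83 ± 0.12. Its relative HSPB7, named by its gap between the doses, had 5.23, 4.93 and 4.94 against 4.30, 4.01 and 4.24. The list of heat shock proteins, given further on, leaned the other way, as did genes of like brightness.

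Receptors for lipid mediators were in this set. TBXA2R, the thromboxane receptor, had 6.03, 5.93 and 5.73 at 200 ng/ml and 5.13, 5.10 and 5.15 at 800 ng/ml, a difference of −0.77 ± 0.12. PTGER1, a prostaglandin receptor, had 6.73, 6.72 and 6.82 against 6.15, 6.08 and 6.03, a difference of −0.67 ± 0.10. DLL3, an inhibitory ligand of the Notch pathway, had 5.06, 4.77 and 5.0 against 3.86, 4.18 and 4.13, a difference of −0.89 ± 0.13. For these 3 genes the lowest array at 200 ng/ml lay above the highest at 800 ng/ml. GPR15, a homing receptor of T cells, the adaptor AFAP1L2, IZUMO2 of a sperm protein family and the potassium channel KCNK17 completed the 10, with differences of −0.77, −0.77, −0.73 and −0.70. RASGRP2, an activator of the small GTPase Rap in platelets, had one of the widest gaps, with 7.12, 6.67 and 6.77 against 5.72, 6.06 and 5.91. ADAMTS10, a matrix protease, and DUSP26, a phosphatase, had −0.93 ± 0.17 and −0.87 ± 0.14. In all of the 10 genes with the smallest p, untreated replicate 2 was the highest of the 9 arrays and the mean of untreated replicates 1 and 3 lay between the doses. KLK7, for example, had 5.59, 6.80 and 5.18 in untreated replicates 1, 2 and 3.

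The genes with the smallest p that were higher at 800 ng/ml included a hypoxia-induced demethylase, a cytokine receptor and enzymes of protein handling. KDM3A, a histone lysine demethylase induced by hypoxia, had 4.43, 4.62 and 4.69 at 200 ng/ml and 5.17, 5.24 and 5.32 at 800 ng/ml, a difference of 0.66 ± 0.12 (SE, n = 3 per dose) or 1.58-fold. IL10RB, the receptor subunit shared by the interleukin-10 family, had 4.68, 4.94 and 5.08 against 5.53, 5.72 and 5.88, a difference of 0.81 ± 0.15. The doses do not overlap for either gene. EDEM3, which trims mannose from misfolded glycoproteins in the endoplasmic reticulum, had 6.11, 6.34 and 6.15 against 6.81, 6.77 and 6.80. PRCP, a carboxypeptidase that cleaves angiotensin peptides, had 6.81, 6.79 and 6.95 against 7.45, 7.40 and 7.35. S100A8, a calcium-binding protein best known from neutrophils, had low signals of 3.19, 3.33 and 3.20 against 4.03, 3.73 and 3.92. The groups of these genes are narrow and apart, with differences of 0.59 ± 0.11, 0.55 ± 0.11 and 0.65 ± 0.12.

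Amino acid transporters were also among them. SLC38A6 had 5.93, 5.75 and 5.87 at 200 ng/ml and 6.73, 6.55 and 6.38 at 800 ng/ml, a difference of 0.70 ± 0.13. SLC1A2, the glutamate transporter of astrocytes and of hepatocytes around the central vein, had 5.82, 6.30 and 6.04 against 6.71, 6.88 and 6.97, a difference of 0.80 ± 0.15. Unlike the glial transcripts below, SLC1A2 was also high in 800 ng/ml replicate 1, and with that array as the only one at this dose the difference was 0.66. TMEM117 and C8orf88 completed the set, with 0.61 ± 0.11 and 0.57 ± 0.11, besides NCAM1, which is described with the glial transcripts. H2AZ2, a variant histone made outside S phase as well, stood out for tight replicates, with 7.30, 7.30 and 7.28 against 7.76, 7.83 and 7.75, a difference of 0.48 ± 0.10. Untreated replicate 2 was the lowest of the 9 arrays in 8 of the 10 genes with the smallest p, and untreated replicates 1 and 3 averaged between the doses in 9. KDM3A had 5.13, 4.19 and 5.52 in untreated replicates 1, 2 and 3. All of the 20 genes with the smallest p had an adjusted p of 0.247 (limma).

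**Figure D2:**
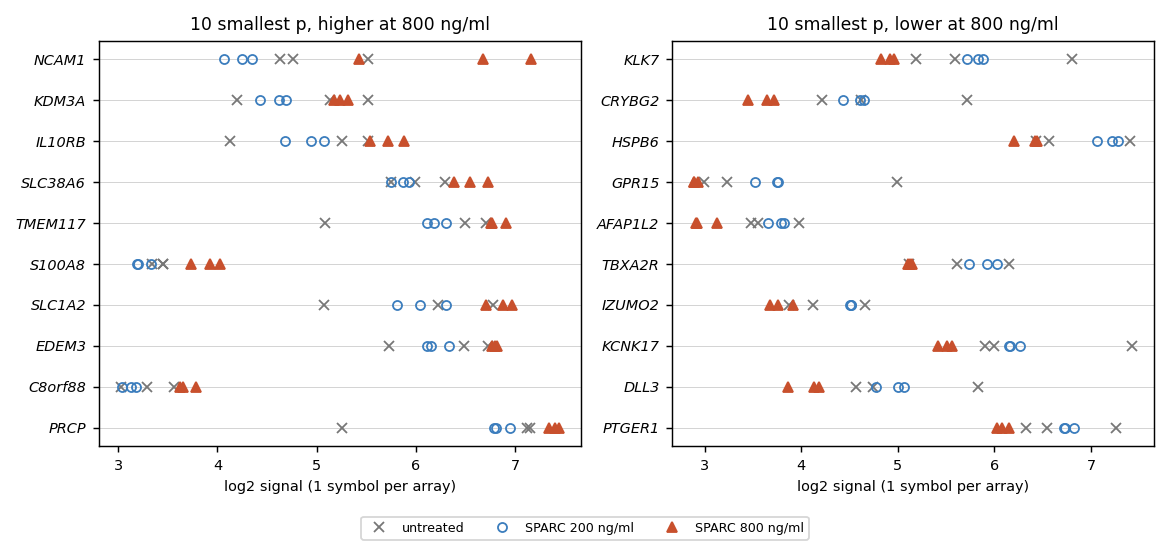
Log2 signal in every array for the 10 genes with the smallest p that were higher (left) and lower (right) at 800 ng/ml; circles are 200 ng/ml, triangles 800 ng/ml and crosses untreated, 1 symbol per array. Circles and triangles are apart in each gene, and 1 cross, untreated replicate 2, lies at the far side of the circles in most of them.

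The largest differences of the comparison came from 2 of the 3 arrays at 800 ng/ml. In replicates 2 and 3, 28 genes lay more than 1 log2 unit above the other 4 arrays, whereas for every other pair of arrays of 1 dose there were 0 such genes. Of the 28, 9 are on the list of astrocyte and radial glia markers. Others are broadly expressed, such as LDHB, a lactate dehydrogenase subunit, with 4.33, 3.87 and 4.28 at 200 ng/ml and 4.24, 5.37 and 6.10 at 800 ng/ml. The 10 with the widest gap were chosen by this pattern, so their values are a description. SPARC, the transcript of the protein that was added, was among them, with 3.70, 3.92 and 3.51 at 200 ng/ml and 4.18, 6.79 and 6.48 at 800 ng/ml. The untreated arrays had 4.05, 4.27 and 4.15, so that replicate 1 at 800 ng/ml sat at the untreated level. The log2 difference of SPARC was 2.10 ± 0.59 (SE, n = 3 per dose; limma, adjusted p = 0.259) over the 6 arrays and 0.46 with replicate 1 as the only array at 800 ng/ml.

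NTRK2, the receptor of brain-derived neurotrophic factor, had 3.91, 3.85 and 3.71 at 200 ng/ml and 3.63, 6.96 and 7.28 at 800 ng/ml. GFAP, the intermediate filament of astrocytes, had 5.03, 4.95 and 5.21 against 4.54, 7.88 and 7.75. SPARCL1, the closest relative of SPARC and abundant in astrocytes, had 4.26, 3.76 and 3.50 against 3.80, 6.48 and 6.39. Replicate 1 was within or below the range of the 200 ng/ml arrays for all 3 genes. ADCYAP1R1, a receptor for the neuropeptide PACAP, had 3.39, 6.29 and 6.22 at 800 ng/ml, and the tetraspanin TSPAN7 had 3.97, 6.85 and 6.98. The myelin lipid-binding protein PMP2 had 3.19, 5.83 and 5.90, the calcium-binding protein SRI 3.48, 6.33 and 5.88, the small heat shock protein CRYAB 3.77, 5.80 and 6.33, and the GABA receptor subunit GABBR1 5.43, 7.32 and 7.28. NCAM1, a neural cell adhesion molecule, differed from these because replicate 1 was higher too: it had 4.34, 4.24 and 4.07 at 200 ng/ml and 5.42, 6.68 and 7.16 at 800 ng/ml. Its difference of 2.20 ± 0.38 had the smallest p among the higher genes, and was 1.20 with replicate 1 as the only array at 800 ng/ml.

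Of 21 measured markers of astrocytes and radial glia, 18 were higher at 800 ng/ml with a median difference of 0.80, against 0.01 for all genes. That list was written with these transcripts already known from the same arrays and is no independent evidence. Replicates 2 and 3 lay above all other 7 arrays for 14 of the 21. The mean signal of the list was 4.74, 4.64 and 4.57 at 200 ng/ml, 4.72, 5.96 and 5.89 at 800 ng/ml and 4.67, 5.0 and 4.62 in untreated cells. Without replicates 2 and 3 its median was 0.01. Markers of neurons had 7 of 19 higher, a median of −0.06 and a mean of 0.05. In limma 4 of the 19 were higher and 1 lower at an unadjusted p under 0.05, against 6.75% and 7.28% of all genes. The mean signal of the neuron markers was 4.50, 4.35 and 4.53 at 200 ng/ml and 4.39, 4.63 and 4.51 at 800 ng/ml. Markers of oligodendrocytes had 7 of 13 higher and a median of 0.06. MAG, a myelin glycoprotein, went the other way, with 6.42, 6.29 and 6.03 against 5.33, 5.57 and 5.04. When replicate 1 was left out instead, 27 genes passed in limma and all were higher at 800 ng/ml. They included SPARC with 2.92 (adjusted p = 0.0030), NTRK2 with 3.30, GFAP with 2.75, NCAM1 with 2.70 and SOX2, a transcription factor of neural progenitors, with 1.63. MAP2, a microtubule protein of the neuron list, also passed with 1.32. The array left out was the 1 already known to lack most of these transcripts, so these calls are no independent evidence. These glial markers moved with the 2 arrays, and their part in the result was not tested. In bulk RNA, more cells of a type and more RNA per cell cannot be told apart.

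**Figure D3:**
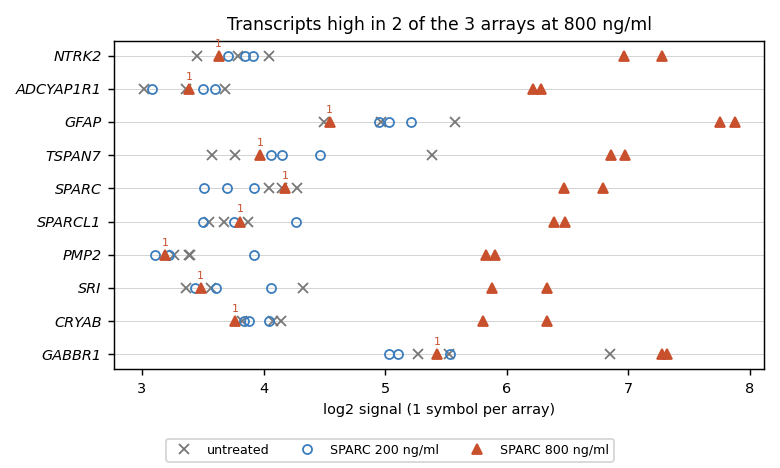
Log2 signal in every array for the 10 genes with the widest gap between 800 ng/ml replicates 2 and 3 and the other 4 arrays of the comparison; circles are 200 ng/ml, triangles 800 ng/ml, crosses untreated, and the numeral marks 800 ng/ml replicate 1. Replicate 1 sits among the circles and crosses in nearly all genes while the other triangles are far to the right.

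Histone genes had the lowest median of the 41 pathway lists. Replication-dependent histone genes supply the nucleosome proteins of newly copied DNA, and their messages, which end in a stem-loop in place of a poly(A) tail, build up in S phase. Of 45 measured members 42 were lower at 800 ng/ml and 3 higher, with a median of −0.14. The arrays did not overlap for 17 (37.8%), all lower, against 9.72% of all genes. All 5 linker histone (H1) genes, all 7 H2AC and all 14 H2BC genes were lower, as were 6 of 8 H3C and 10 of 11 H4C genes. The mean signal of the list was 7.27, 7.37 and 7.26 at 200 ng/ml and 7.04, 7.17 and 7.18 at 800 ng/ml. Untreated cells had 7.15, 6.75 and 7.18. Each array at 200 ng/ml was thus above all untreated arrays, while 800 ng/ml replicates 2 and 3 were near untreated replicates 1 and 3. The members share near-identical sequences, and probes for 1 can bind messages of others, so they are not independent.

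H1-4, a linker histone, had 11.86, 11.75 and 11.83 at 200 ng/ml and 11.18, 11.54 and 11.50 at 800 ng/ml, a difference of −0.40 ± 0.13 (SE, n = 3 per dose). H2AC14 had 12.39, 12.23 and 12.24 against 11.72, 12.01 and 12.01, and H2BC14 had 12.004, 11.997 and 12.006 against 11.48, 11.80 and 11.71. H3C10 had 6.37, 6.58 and 6.31 against 5.67, 6.01 and 6.21. In all of these genes the doses do not overlap and 800 ng/ml replicate 1 was the lowest array. The median deviation of the list from the mean of the 6 arrays was 0.02, 0.13 and 0.07 at 200 ng/ml and −0.19, −0.04 and −0.02 at 800 ng/ml. Without replicate 1 the median was −0.11, with 33 of 45 lower. Then 19 of 45 were lower without overlap, against 14.5% of all genes with 2 arrays set against 3. It was −0.18 after quantile normalization and −0.17 after cyclic loess, so rescaling did not remove it. At an unadjusted p under 0.05, 10 of the 45 were lower and 0 higher in limma, against 7.28% and 6.75% of all genes, and 0 had an adjusted p under 0.05. The labels name only a standard biotin protocol, and whether it primed from poly(A) tails, which these messages lack, was not given in the sources used here. Genes of DNA replication, given below, leaned the other way.

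**Figure D4:**
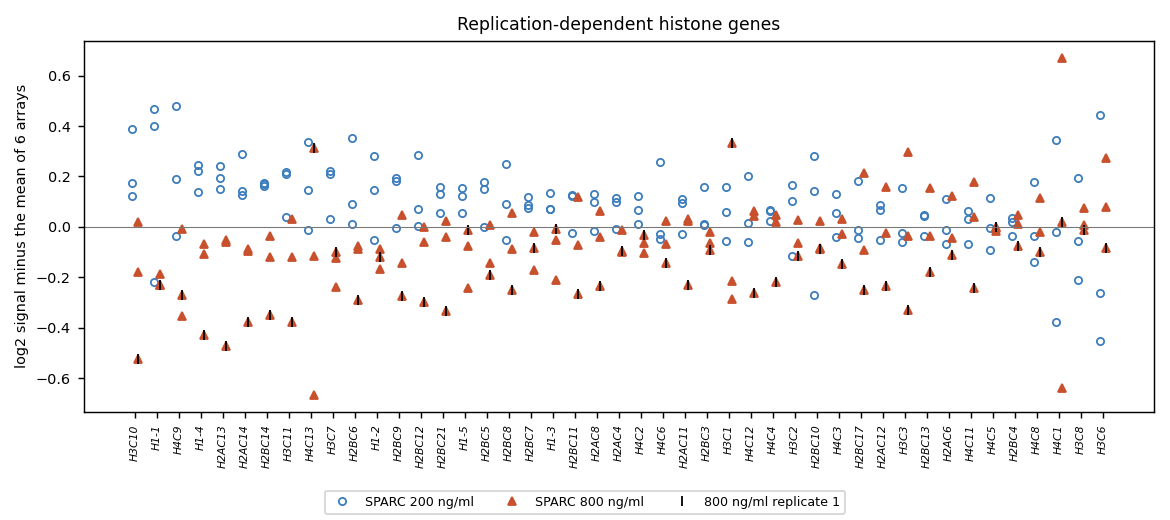
Log2 signal minus the mean of the 6 arrays for the 45 measured replication-dependent histone genes, ordered by difference; circles are 200 ng/ml and triangles 800 ng/ml, 1 symbol per array, and a vertical tick marks 800 ng/ml replicate 1. In 42 of 45 genes the triangles average below the circles, and replicate 1 is often the lowest.

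Since histone genes leaned together, the bases just upstream of them are shown for the linker histone and the paired genes named above. They are the 250 bases before the RefSeq start in GRCh38.p14, read 5′ to 3′ on the strand of the gene. H1-4 lies at chr6:26156079-26156328 on the plus strand. H2AC14 lies at chr6:27814778-27815027 on the minus strand, and shares 244 of its bases with the window of H2BC14, which reads the other way. Capitals mark CCAAT on either strand and, in H1-4, AAACACA, the letters of the box known from linker histone promoters.
H1-4: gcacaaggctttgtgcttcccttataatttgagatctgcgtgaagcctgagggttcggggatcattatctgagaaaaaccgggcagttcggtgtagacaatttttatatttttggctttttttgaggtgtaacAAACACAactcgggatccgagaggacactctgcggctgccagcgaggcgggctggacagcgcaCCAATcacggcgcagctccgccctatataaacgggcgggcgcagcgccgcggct
H2AC14: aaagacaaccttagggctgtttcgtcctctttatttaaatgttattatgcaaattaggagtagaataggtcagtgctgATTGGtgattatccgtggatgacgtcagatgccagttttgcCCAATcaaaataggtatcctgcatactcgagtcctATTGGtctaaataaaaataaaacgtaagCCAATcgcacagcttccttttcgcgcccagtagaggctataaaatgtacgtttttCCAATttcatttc
H2AC14 and H2BC14 are thus read from a common stretch with 5 CCAAT matches, and H1-4 has 1 match to each motif. CCAAT was found in 35 of the 41 histone members with a promoter in the table (85.4%), against 33.0% of all 27305 promoters of the same length. Windows such as those of H2AC14 and H2BC14 overlap, so the 41 are not all separate. The median GC content was 41.2% in the histone windows and 62.4% in those of all tested genes. AAACACA was found in all 5 linker histone genes and in 4.95% of all promoters, both strands counted. These are matches of letters and say nothing of factor binding in these cells.

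Hypoxia-induced genes went both ways, although KDM3A was among the leading genes. Of 27 measured, 17 were higher and 10 lower, with a median of 0.06, and 6 were higher and 3 lower without overlap, against 12.1% and 9.72% of all genes. PDK1, which keeps pyruvate out of mitochondria, had 6.71, 6.81 and 6.88 at 200 ng/ml and 7.12, 7.22 and 7.19 at 800 ng/ml, a difference of 0.38 ± 0.11. INSIG2, a retention factor of sterol regulation, had 6.66, 6.67 and 6.53 against 7.20, 6.88 and 7.05. ANKRD37 went against them, with 6.09, 6.10 and 6.38 against 5.33, 5.80 and 5.49, a difference of −0.65 ± 0.15. The groups do not overlap for any of the 3. Of the regulators, HIF1A, the oxygen-regulated subunit, had 7.81, 8.61 and 8.37 against 8.47, 8.38 and 8.56, and EPAS1, its paralog, 10.61, 10.30 and 10.35 against 10.22, 10.38 and 10.29. Both overlap. VHL, which marks the factor for degradation, had 6.87, 6.42 and 6.74 against 7.21, 6.92 and 7.05.

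The upstream bases of ANKRD37 are shown because it opposed KDM3A and PDK1 within 1 list. The window is chr4:185396591-185396840 on the plus strand of GRCh38.p14. Capitals mark ACGTG, the core letters of the hypoxia response element, on either strand.
ANKRD37: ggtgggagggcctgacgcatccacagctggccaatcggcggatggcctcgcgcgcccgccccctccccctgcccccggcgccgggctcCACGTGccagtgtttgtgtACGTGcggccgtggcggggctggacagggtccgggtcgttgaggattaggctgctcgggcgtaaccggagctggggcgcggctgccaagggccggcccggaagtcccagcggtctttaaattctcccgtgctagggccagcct
The 3 matches include a palindrome that counts on both strands. The windows of KDM3A and PDK1 held 0 matches, which speaks only of these 250 bases. INSIG2, which was higher like KDM3A and PDK1, did hold ACGTG in its window, so the motif did not go with the direction. ACGTG was found in 14 of 23 members with a promoter in the table (60.9%) and in 18.7% of all promoters.

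Matrix and adhesion genes, the ones nearest to the known roles of SPARC, were divided. Collagens and their processing enzymes had 27 of 40 members lower and a median of −0.08, with 5 lower (12.5%) and 3 higher (7.5%) without overlap, near the 9.72% and 12.1% of all genes. COL1A2, a chain of fibrillar type I collagen, had 7.47, 6.998 and 7.16 at 200 ng/ml and 6.67, 6.55 and 6.54 at 800 ng/ml, a difference of −0.62 ± 0.14 (SE, n = 3 per dose). COL6A2 had 5.08, 4.76 and 4.97 against 4.59, 4.24 and 4.55, and COL15A1, a basement membrane collagen, 6.22, 5.93 and 6.06 against 5.68, 5.73 and 5.72. PLOD2, the lysyl hydroxylase for collagen cross-links, went the other way with 8.88, 9.10 and 9.02 against 9.45, 9.38 and 9.31. All of these were apart between the doses.

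Matrix-cleaving enzymes and their inhibitors had 23 of 32 members lower, a median of −0.11 and 6 lower (18.8%) against 1 higher without overlap, where all genes had 9.72% and 12.1%. PLAT, tissue plasminogen activator, had 6.46, 5.84 and 6.38 against 5.47, 5.52 and 5.58, a difference of −0.70 ± 0.17. ADAM19 had 5.21, 5.22 and 4.99 against 4.77, 3.62 and 4.40, a difference of −0.88 ± 0.26, with a wide spread at 800 ng/ml. The medians of the collagen and matrix enzyme lists stayed negative under all 3 rescalings and with each array left out. Their median signals were 4.83 and 4.36, in the range where genes in general were lower at 800 ng/ml. Glycoproteins and proteoglycans of the matrix had 23 of 40 higher and a median of 0.07, which was −0.07 without 800 ng/ml replicates 2 and 3. FBN2, a fibrillin of microfibrils, had 3.84, 4.06 and 3.78 against 3.50, 2.89 and 3.15, and LAMA4, a laminin chain, 6.93, 6.44 and 6.59 against 6.17, 6.20 and 6.04, both lower without overlap.

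Integrins and adhesion kinases had 16 of 34 higher and a median of −0.01, whose sign turned with the scaling. ITGAM, a leukocyte integrin chain, had 4.33, 4.001 and 4.22 against 3.67, 3.65 and 3.77, a difference of −0.49 ± 0.12. ITGA2, a collagen receptor chain, had 6.92, 7.27 and 7.33 against 7.66, 7.42 and 7.42. For the surface proteoglycans, 5 of 10 were higher, among them GPC6 with 0.21 ± 0.11, and GPC1 had −0.29 ± 0.14. Of TGF-beta ligands, receptors and targets 17 of 28 were higher, with a median of 0.06 that turned to −0.01 after quantile normalization. SMAD6, an inhibitory SMAD, had 7.82, 7.66 and 7.67 against 8.10, 7.93 and 7.99, whereas PMEPA1, a TGF-beta target, had 4.48, 4.55 and 4.42 against 4.04, 4.18 and 4.33. Hippo pathway genes had 13 of 24 higher and a median of 0.02, which was −0.05 after quantile normalization, and 0 members had an unadjusted p under 0.05. Genes of epithelial to mesenchymal transition had 11 of 21 higher and a median of 0.03, again with 0 members at that level.

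Some lists of liver metabolism leaned toward higher values at 800 ng/ml, in small steps, and others did not. Fatty acid oxidation and ketogenesis had 19 of 25 members higher, a median of 0.10 and 8 higher (32.0%) against 2 lower without overlap, where all genes had 12.1% and 9.72%. The median was 0.05 after quantile normalization and 0.04 after cyclic loess. Exceptions were large in that list: ACADS, the short-chain acyl-CoA dehydrogenase, had 5.68, 5.79 and 5.49 at 200 ng/ml and 4.77, 4.64 and 5.38 at 800 ng/ml, a difference of −0.72 ± 0.20. BDH1, which forms the ketone body hydroxybutyrate, had 0.44 ± 0.19 with overlapping arrays. Urea cycle and amino acid genes had 16 of 23 higher and a median of 0.06, with 6 higher (26.1%) and 0 lower without overlap, again beside 12.1% and 9.72%. BCKDHB, a subunit of the branched-chain ketoacid dehydrogenase, had 6.01, 5.95 and 6.18 against 6.66, 6.48 and 6.82, a difference of 0.60 ± 0.13. GLUL, glutamine synthetase, had 9.39, 9.36 and 9.31 against 9.64, 9.69 and 9.69, which is narrow and apart. GLUL and SLC1A2 also stand on the astrocyte list. The fatty acid oxidation and urea cycle lists had median signals of 7.67 and 6.45. In the bins that hold these signals all genes had medians of 0.08 and 0.07, with 19.8% and 16.9% higher without overlap. Bile acid genes had 7 of 17 higher and a median of −0.02, and liver-enriched transcription factors 7 of 17 and −0.06.

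Complement and coagulation factors, which hepatocytes secrete, had 21 of 35 higher and a median of 0.11. Without overlap 9 were higher (25.7%, against 12.1% of all genes) and 0 lower (against 9.72%). In the bin that holds the list's median signal of 6.97, all genes had a median of 0.08. Of that bin 19.6% were higher and 7.01% lower without overlap. After quantile normalization the median of the list was 0.06 with 5 higher and 1 lower, where all genes had 9.63% and 10.6%. It was 0.05 after cyclic loess. MBL2, the mannose-binding lectin, had 6.84, 6.83 and 6.84 against 7.14, 7.10 and 7.09, a difference of 0.28 ± 0.10. PROS1, the anticoagulant protein S, had 6.16, 6.55 and 6.38 against 6.81, 6.77 and 6.67. Acute phase proteins had 12 of 21 higher and a median of 0.04, which was −0.0008 after quantile normalization. Of them 2 were higher and 2 lower without overlap (9.52% each, against 12.1% and 9.72% of all genes). In that list TF, transferrin, had 10.84, 10.98 and 10.91 against 11.22, 11.18 and 11.17, and FGB, a fibrinogen chain, 9.20, 9.38 and 9.40 against 9.76, 9.54 and 9.54. MBL2, PROS1, TF and FGB lie apart by dose, by 1.2- to 1.3-fold. Apolipoproteins had 13 of 22 lower and a median of −0.04, with APOA5, a regulator of plasma triglyceride, at 7.79, 7.42 and 7.47 against 7.35, 7.17 and 6.84. In gluconeogenesis, PCK1, its gate enzyme, had 5.99, 5.76 and 5.54 against 5.23, 5.47 and 5.43, while the list had 17 of 22 higher. Cholesterol synthesis had 12 of 18 higher, with HMGCS1 at 0.47 ± 0.17, and its median of 0.08 was 0.03 after quantile normalization.

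Of the housekeeping machineries, the splicing, proteasome and respiratory chain lists leaned higher, and cytosolic ribosomal proteins did not. Splicing factors had the highest median of the pathway lists, 0.14, with 25 of 34 higher. Without overlap 11 were higher and 1 lower (32.4% and 2.94%, against 12.1% and 9.72% of all genes), which was 8 and 3 after quantile normalization. PRPF4, of the tri-snRNP, had 7.55, 7.64 and 7.59 at 200 ng/ml and 7.92, 8.07 and 8.07 at 800 ng/ml, and TRA2A, a splicing activator, 7.38, 7.35 and 7.40 against 7.68, 7.80 and 7.85. Proteasome subunits had 26 of 28 higher and a median of 0.10, with PSMA4 at 6.31, 6.76 and 6.68 against 7.12, 7.11 and 7.15. PSMD8 was an exception at −0.29 ± 0.12. The respiratory chain had 22 of 30 higher and a median of 0.11. Without overlap 10 were higher and 2 lower (33.3% and 6.67%, against 12.1% and 9.72% of all genes), which was 6 and 3 after quantile normalization. All genes had 9.63% higher and 10.6% lower without overlap after quantile normalization. SDHD of complex II had 7.63, 7.76 and 7.53 against 8.24, 8.004 and 8.05, and COX7A2 of cytochrome oxidase 8.14, 7.95 and 8.13 against 7.52, 7.69 and 7.80. The median signals of the 3 lists were 9.02, 8.66 and 8.46, against 5.57 for all genes, and bright genes were higher at 800 ng/ml in general. All 3 fall in the brightest bin, where all genes had a median of 0.06, with 22.6% higher and 7.91% lower without overlap. After quantile normalization the list medians were 0.11 for splicing, 0.05 for the proteasome and 0.07 for the respiratory chain. Without 200 ng/ml replicate 1 they were 0.09, 0.06 and 0.07. That array was the lowest of the 6 in each list, with median deviations of −0.13, −0.18 and −0.10. The mean signal of proteasome genes was 8.48, 8.61 and 8.64 at 200 ng/ml and 8.71, 8.70 and 8.70 at 800 ng/ml. Untreated cells had 8.74, 7.84 and 8.74. Cytosolic ribosomal proteins had 20 of 32 lower and a median of −0.05, which turned to 0.02 without 800 ng/ml replicate 1.

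Cell cycle genes other than histones were higher on balance as deposited, as were genes of like brightness. DNA replication genes had 23 of 36 higher and a median of 0.08, with 9 higher (25%) and 5 lower (13.9%) without overlap, against 12.1% and 9.72% of all genes. That balance turned to 5 higher and 6 lower after quantile normalization and to 4 and 6 after cyclic loess. The balance of all genes turned too, to 9.63% higher and 10.6% lower after quantile normalization and to 9.89% and 10.4% after cyclic loess. POLA1, the polymerase that primes replication, had 6.70, 6.96 and 6.83 against 7.40, 7.25 and 7.27, and CDC45, of the replicative helicase, 7.18, 7.43 and 7.41 against 7.89, 7.77 and 7.80. POLD1, the catalytic subunit of polymerase delta, had 6.05, 6.26 and 5.99 against 5.50, 5.79 and 5.82. Each of the 3 separates the doses. Mitosis genes had 27 of 38 higher and a median of 0.10, with NUF2 of the kinetochore at 0.50 ± 0.17 and MAD2L1 of the spindle checkpoint at 0.32 ± 0.13. Of the mitosis genes 6 (15.8%) were higher and 2 (5.26%) lower without overlap, which was 3 and 5 after quantile normalization. The medians of the replication and mitosis lists were then 0.03 and 0.04. Their median signals, 7.58 and 7.81, fall in the ninth bin from the dim end. All genes of that bin had a median of 0.08, with 19.8% higher and 5.71% lower without overlap. Without 200 ng/ml replicate 1 the list medians were 0.01 and 0.06.

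Stress and immune lists were divided as well. Heat shock proteins had 15 of 17 higher and a median of 0.07, with 3 (17.6%) higher and 1 (5.88%) lower without overlap. Their median signal of 9.33 falls in the brightest bin, where all genes had a median of 0.06. Of that bin 22.6% were higher and 7.91% lower without overlap. HSPB8 had 4.52, 4.35 and 4.62 at 200 ng/ml and 4.76, 5.28 and 5.35 at 800 ng/ml, and DNAJB4, a co-chaperone, 6.87, 6.96 and 6.99 against 7.46, 7.21 and 7.21. CRYAB belongs to this list and followed the glial pattern. Genes of the unfolded protein response had 21 of 31 higher and a median of 0.09, which was 0.05 after quantile normalization. In the bin that holds their median signal of 7.71, all genes had a median of 0.08. SEL1L, of the degradation complex, had 0.34 ± 0.12 and PPP1R15A, a stress-induced phosphatase subunit, −0.34 ± 0.12. Interferon-stimulated genes had a median of 0.12 but held the same number of members without overlap in each direction, 4 and 4 of 32 (12.5%), near the 12.1% and 9.72% of all genes. ISG20, an antiviral exonuclease, had 6.36, 6.50 and 6.82 against 5.88, 6.07 and 5.66, whereas IFIT1 had 3.43, 3.43 and 3.44 against 3.93, 3.70 and 3.96. Among NF-kappaB targets, 14 of 23 were lower. NFKBIA, the inhibitor that the pathway induces, had 9.30, 9.30 and 9.47 against 8.73, 9.08 and 9.13, while the chemokine CCL20 had 9.96, 10.04 and 9.97 against 10.33, 10.23 and 10.25. Metallothioneins had 5 of 9 higher, with 0 members without overlap in either direction, against 12.1% and 9.72% of all genes.

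**Figure D5:**
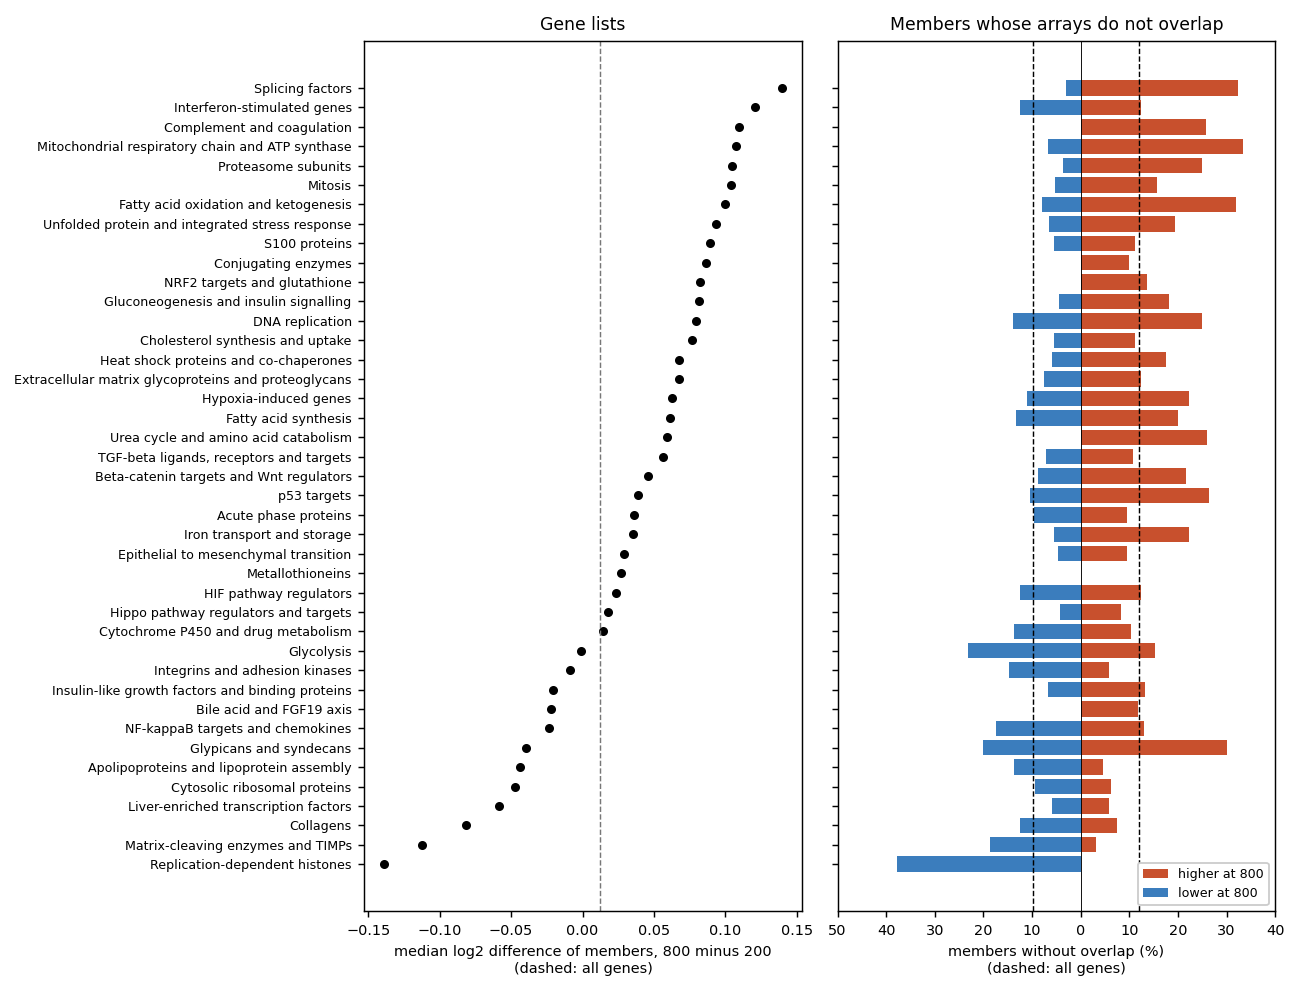
Left, median log2 difference, 800 minus 200 ng/ml, over the measured members of each of the 41 gene lists; right, percent of members whose arrays do not overlap between doses, higher to the right and lower to the left of 0, with dashed lines at the values for all genes. Histones lie furthest to the low side at −0.14 and splicing factors furthest to the high side at 0.14.

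Markers of further cell types of the liver had medians between −0.14 and 0.08. Markers of fibroblasts and stellate cells had a median of −0.03 with 3 of 10 higher, cholangiocytes −0.07 with 3 of 7, microglia, Kupffer and blood cells 0.08 with 8 of 14, and endothelium −0.14 with 3 of 10. Single members did separate the doses. AIF1, a macrophage protein, had 3.42, 3.46 and 3.06 at 200 ng/ml and 4.01, 3.99 and 3.72 at 800 ng/ml. CLDN5, an endothelial tight junction protein, had 5.28, 4.89 and 4.98 against 4.39, 4.76 and 4.32. These signals are low, and without detection calls it is not known whether such transcripts were above background.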

How the data were processed

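Total RNA of 9 HepG2 samples was labelled with biotin and hybridised to 1-colour arrays, per the labels. The authors deposited 1 table of log2 values per transcript cluster and array. The log2 scale is inferred from their range. The submitters' processing notes name R 3.0. Normalization, background correction and filters were not given in the sources used here, and the table has no detection calls.

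Of 21448 clusters, 17709 had 1 gene symbol in the platform annotation, 0 several and 3739 none. Symbols were checked through Entrez identifiers against RefSeq (GRCh38.p14), and 0 were updated. For the 20 genes with more than 1 cluster the brightest was kept, which left 17687 genes. Every pair of arrays differed (0 identical pairs). The 6 SPARC arrays were fitted with limma 3.58.1 in R 4.3.3 (lmFit, eBayes, default prior, two-sided), with Benjamini-Hochberg adjustment over all genes and a threshold of 0.05. The procedure was tested on simulated data. Precision is limited by the number of arrays.

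Named genes were the 10 with the smallest p and the 10 with the widest gap in each direction. To these came the 10 with the widest gap between 800 ng/ml replicates 2 and 3 and the other 4 arrays, up to 4 members of each list by p, and SPARC, ALB, AFP and APOA1. SOX2 and MAP2 were named after their values were seen. The comparison, the 41 gene lists, the 8 marker lists (1214 genes, 1086 measured) and the alternatives were chosen with earlier results of these data known. Lists are described by counts and medians, with no set test. Promoters are the 250 bases before the RefSeq start in GRCh38.p14. They were found for 80.6% of tested genes, and a check of their GC content is void for the genes that were lower without overlap, since only 76.0% had one.

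Equal replicate numbers were not taken as pairs: deviations of same-numbered arrays from their group means correlated at 0.0001, −0.05 and 0.03. Alternatives were quantile normalization, median centring, leaving out the dimmest 25% or 50% of genes, the mean of all clusters, a trended robust prior, all 9 arrays in the fit, array weights, the replicate number as a block, each array left out in turn, and 800 ng/ml replicates 2 and 3 left out together. Cyclic loess, and the counts without overlap with an array left out, were added after seeing the data.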

Additional observations from a re-analysis of the deposited data

How the results depend on the processing

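The count of genes past limma's threshold was 0 under every alternative except leaving out 800 ng/ml replicate 1, with a range of 0 to 27 when each array was left out. The smallest adjusted p was 0.261 after quantile normalization, 0.252 after median centring, 0.253 after cyclic loess, 0.181 and 0.104 without the dimmest 25% and 50% of genes, 0.152 with array weights and 0.05001 with a trended robust prior. With the replicate block it was 0.303, with 2322 genes at an unadjusted p under 0.05. With all 9 arrays in the fit it was 0.999, and 427 genes had an unadjusted p under 0.05, against 2481. With each array left out that count ranged from 1892 to 2424. Genes without overlap numbered 3867, and 2373 without the dimmest 50% of genes, where 8843 genes were tested. They ranged from 5381 to 6081 with an array left out, where 2 arrays meet 3. Their split was 2147 higher and 1720 lower, 1703 and 1866 after quantile normalization, and 2466 and 1502 after median centring. For named genes, 3612 of 3642 values kept direction and call, 12 newly passed and 18, in 12 genes, changed sign. TTR turned to −0.017 after quantile normalization and −0.018 after cyclic loess. AFP had −0.040 in both, −0.0021 with array weights, and −0.058 without 800 ng/ml replicates 2 and 3. With each array left out AFP ranged from −0.051 to 0.062, HIF1A from −0.021 to 0.38 and APOA1 from −0.11 to 0.016, with the sign turned without 200 ng/ml replicate 1 and, for AFP, also without 800 ng/ml replicate 3 (−0.020). Without 800 ng/ml replicates 2 and 3, NTRK2 had −0.19, ADCYAP1R1 −0.0077, GFAP −0.52, TSPAN7 −0.25, SPARCL1 −0.037, PMP2 −0.23, SRI −0.22 and CRYAB −0.15. List medians changed sign for 10 of 49 lists after quantile normalization, 2 after centring, 9 after cyclic loess and 17 when any 1 array was left out. The causes were not tested.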

Other observations

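Other lists held genes that separated the doses although the list did not. Of p53 targets, 12 of 19 were higher at 800 ng/ml with a median of 0.04, which turned to −0.03 after quantile normalization. XPC, a sensor of damaged DNA, had 7.16, 7.23 and 7.08 at 200 ng/ml and 7.72, 7.44 and 7.44 at 800 ng/ml, and TIGAR, a phosphatase of sugar metabolism, 5.02, 5.62 and 5.57 against 5.77, 5.87 and 6.06. Among beta-catenin targets and Wnt regulators 12 of 23 were higher. APC, the scaffold of the complex that degrades beta-catenin, had 7.06, 7.08 and 7.19 against 7.53, 7.72 and 7.71, a log2 difference of 0.54 ± 0.11 (SE, n = 3 per dose), while the target SP5 had 7.51, 7.12 and 7.46 against 7.01, 6.80 and 7.08. In both genes the doses do not overlap, and no gene of this section passed in limma.

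Drug metabolism was divided by enzyme. Cytochrome P450 genes had 15 of 29 higher and a median of 0.01. CYP2D6 had 6.01, 6.25 and 5.78 against 5.23, 5.46 and 5.58, a difference of −0.59 ± 0.15, and CYP24A1, which inactivates vitamin D, 6.89, 7.04 and 7.24 against 7.27, 7.50 and 7.56, a difference of 0.39 ± 0.14. GSTM3, a glutathione transferase, had 6.52, 6.46 and 6.59 against 6.86, 7.06 and 6.86. For iron transport 10 of 18 were higher, with SLC11A2, the divalent metal transporter, at 4.29, 4.55 and 4.57 against 4.77, 4.96 and 5.46. IGFBP7, a binding protein of the insulin-like growth factor family, had 6.68, 7.05 and 7.04 against 7.06, 7.64 and 7.65, with its highest arrays in 800 ng/ml replicates 2 and 3.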
